A study of Sus scrofa with 60 samples.

Results

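Galectins are the subject here, with LGALS3, LGALS1, LGALS4, LGALS8 and LGALS9 described across livers of cholestatic and sham-operated neonatal pigs on 3 diets. They are 5 of the 30335 genes with an identifier in the table, found by their gene symbols. LGALS3 was chosen by its measured values, namely a rise after bile duct ligation on 2 of the diets and not on the other, and the other members joined it as family members. The values of LGALS3 over the groups are therefore given as a description without a test. The other members were tested where their counts allowed it, which left out LGALS4.

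The pigs were of mixed Landrace and Hampshire breed, of both sexes, and were delivered slightly preterm by cesarean section. On day 1 of life they had either bile duct ligation (BDL), in which the cystic duct and the common bile duct were tied, or a sham operation in which the liver was only handled, and all were given a jugular catheter. BDL is a model of obstructive cholestasis as seen in biliary atresia, in which bile cannot leave the liver. Enteral pigs (ENT) were given a milk replacer through an orogastric tube, and the others were fed parenterally with a soybean oil emulsion (SLE, Intralipid) or a mixed emulsion with fish oil (MLE, SMOFlipid). All pigs, ENT included, had first received parenteral nutrition, and liver tissue was taken after 14 days. Sham pigs gave 12 libraries on ENT, 10 on SLE and 9 on MLE, and BDL pigs gave 10, 11 and 8.

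Galectins are small lectins that bind β-galactoside sugars on glycoproteins and glycolipids. They are made in the cytosol, leave the cell without a signal peptide, and cross-link receptors at the cell surface or bind sugars exposed on broken endosomes and lysosomes inside the cell. In liver, galectin-3 is best known from macrophages and from injured bile duct epithelium, galectin-1 from mesenchymal and endothelial cells, and galectin-9 from Kupffer cells and endothelium, while galectin-4 is mainly a product of the gut epithelium.

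A library held 14469788 to 21374161 counted reads, and levels are given as CPM, counts scaled to the size of the library after TMM normalization. ENT-sham replicate 2 and ENT-BDL replicate 1 carry different labels but were nearly the same library. Over genes, a chi-square comparison of their counts gave 1.91 per degree of freedom, where the next closest of 1770 pairs of libraries had 16.1. Main results on ENT are given with and without both. A value on ENT, or against ENT, that is printed without mention of the pair includes both libraries. SLE-sham replicates 9 and 10 bear the same pig identifier, yet differed by 34.2 per degree of freedom and were both kept, so that SLE-sham may hold 9 animals in its 10 libraries. Libraries are counted as pigs below, and how either case arose was not tested. The hepatocyte marker ALB was present at 20386 to 87243 CPM in every library.

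LGALS3, which encodes galectin-3, the only chimera-type galectin, was low in ENT-sham and MLE-sham livers and high in the other 4 groups, SLE-sham among them. The gene lies on chromosome 1 (184478639-184496155, plus strand, Sscrofa11.1). On ENT, LGALS3 ranged from 0.312 to 9.31 CPM in sham pigs (median 0.677) and from 8.63 to 25.8 CPM in BDL pigs (median 15.6). On SLE, it ranged from 3.37 to 59.9 CPM in sham pigs (median 14.9) and from 6.09 to 41.7 CPM in BDL pigs (median 27.8). On MLE, it ranged from 1.02 to 3.53 CPM in sham pigs (median 1.56) and from 9.42 to 30.3 CPM in BDL pigs (median 16.8). Sham and BDL pigs were thus apart on MLE, where every BDL pig lay above every sham pig, and intermingled on SLE. On ENT, 8 of 10 BDL pigs lay above all sham pigs, and the overlap came from ENT-sham replicate 2, 1 of the near-identical pair.

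**Figure D1:**
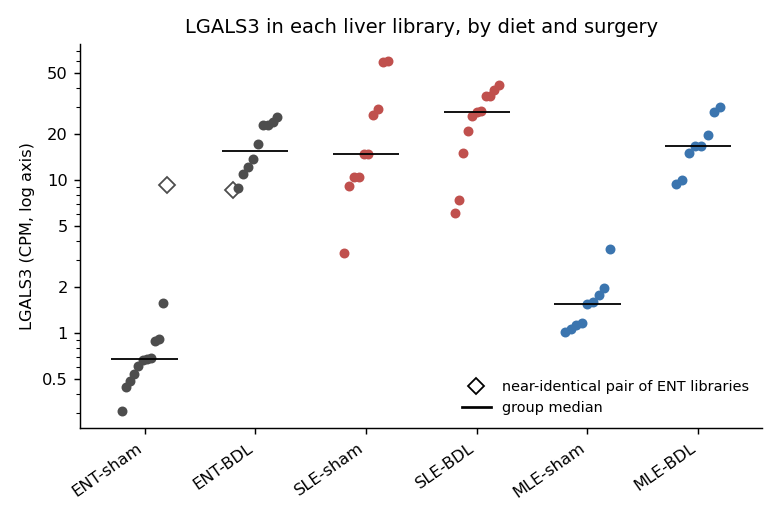
LGALS3 in CPM on a log axis for each of the 60 liver libraries, by diet and surgery, with the group median as a bar and the near-identical pair of ENT libraries as white diamonds. The MLE-sham pigs (1.02 to 3.53 CPM) lie below all MLE-BDL pigs (9.42 to 30.3 CPM), whereas the SLE-sham pigs (3.37 to 59.9 CPM) span the range of the SLE-BDL pigs.

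Mean LGALS3 was 1.43 ± 2.50 CPM (SD, n = 12) in ENT-sham and 16.8 ± 6.67 (n = 10) in ENT-BDL. It was 23.9 ± 20.5 (n = 10) in SLE-sham and 25.8 ± 12.2 (n = 11) in SLE-BDL. It was 1.65 ± 0.783 (n = 9) in MLE-sham and 18.3 ± 7.53 (n = 8) in MLE-BDL. In the order of these means, both SLE groups were first, and SLE-BDL, SLE-sham, MLE-BDL and ENT-BDL followed each other by less than 1 SD of either neighbour, then came a wide step down to MLE-sham, which was followed by ENT-sham, again within its spread. The log2 fold change of BDL over sham was 3.46 (SE 0.45) on ENT, 0.11 (SE 0.40) on SLE and 3.46 (SE 0.52) on MLE. Without the near-identical pair, ENT-sham fell to 0.711 ± 0.338 CPM (n = 11), ENT-BDL was 17.7 ± 6.40 CPM (n = 9), the groups no longer overlapped and the log2 fold change on ENT became 4.59 (SE 0.41). As differences between diets, the response on SLE minus that on ENT was -3.34 (SE 0.59), MLE minus SLE was 3.35 (SE 0.64) and MLE minus ENT was 0.01 (SE 0.69). Without the pair, SLE minus ENT was -4.48 (SE 0.52) and MLE minus ENT was -1.13 (SE 0.59). In whole liver, a change in the number of cells that hold a transcript and a change in RNA per cell cannot be told apart, here or for any gene below.

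In sham pigs, LGALS3 was higher on SLE than on either other diet. LGALS3 in SLE-sham exceeded ENT-sham by a log2 fold change of 3.97 (SE 0.45), with 8 of 10 SLE-sham pigs above every ENT-sham pig. With the near-identical pair left out, this difference was 5.03 (SE 0.41) and 10 of 10 SLE-sham pigs lay above. MLE-sham lay below SLE-sham (-3.85, SE 0.51). After BDL, SLE-BDL differed from ENT-BDL by 0.62 (SE 0.40), MLE-BDL from ENT-BDL by 0.13 (SE 0.43) and MLE-BDL from SLE-BDL by -0.50 (SE 0.43), the first 2 becoming 0.55 (SE 0.33) and 0.05 (SE 0.36) without the pair. Of 11 SLE-BDL pigs, 7 lay above every ENT-BDL pig and 2 below all of them, with or without the pair, and the mean of SLE-BDL was 1.54 times that of ENT-BDL, or 1.46 times without it. These comparisons reuse the same 6 groups and are not separate pieces of evidence. MLE-sham and ENT-sham differed by 0.12 (SE 0.51) with all pigs and by 1.18 (SE 0.46) without the near-identical pair, so the nearness of both groups rests on ENT-sham replicate 2.

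Apart from ENT-sham, the spread of LGALS3 was widest within SLE-sham, with a coefficient of variation of 85.6%, against 47.5% in MLE-sham and, after BDL, 39.8% on ENT, 47.3% on SLE and 41.2% on MLE. In ENT-sham it was 175%, from its replicate 2. Titles carry a number of 3 digits within the pig identifier, whose meaning is not given. SLE-sham replicates 4 and 5, at 59.7 and 59.9 CPM, were the highest of all libraries and share 1 such number, and replicates 9 and 10, at 3.37 and 9.21 CPM, share another. Where both surgeries of a diet occurred under 1 number, LGALS3 was higher after BDL under 6 of 6 numbers on ENT (difference of mean log2 CPM 2.37 to 5.04, or 2.43 to 5.05 under 6 of 6 without the near-identical pair) and 4 of 4 on MLE (3.10 to 3.54). On SLE it was higher under 2 of 4 numbers (-0.52 to 1.17). These tallies split the same values by which LGALS3 was chosen and are no separate evidence. Some numbers held only 1 pig of each surgery. In separate fits, groups accounted for 82.2% of the variance of LGALS3 in log2 CPM and identifier numbers for 7.05%. The share of groups follows from the pattern by which LGALS3 was chosen. Numbers are spread unevenly over the groups, so these shares cannot be fully separated.

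LGALS1, which encodes the dimeric galectin-1, rose about 2-fold after BDL on ENT and on MLE. It lies on chromosome 5 (10149069-10152514, minus strand). On ENT, LGALS1 ranged from 8.70 to 24.4 CPM in sham pigs (median 10.9) and from 17.0 to 45.7 CPM in BDL pigs (median 23.0). On SLE, it ranged from 7.68 to 28.5 CPM in sham pigs (median 16.3) and from 13.5 to 36.8 CPM in BDL pigs (median 23.6). On MLE, it ranged from 9.15 to 16.9 CPM in sham pigs (median 10.7) and from 13.8 to 38.4 CPM in BDL pigs (median 23.6). On MLE, 7 of 8 BDL pigs were above every sham pig, on SLE 3 of 11 were, and on ENT 4 of 10 were, or 9 of 9 without the near-identical pair.

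LGALS1 averaged 12.3 ± 4.24 CPM in sham and 25.4 ± 8.35 CPM in BDL pigs on ENT (log2 fold change 1.04, SE 0.19, adjusted p = 6.55e-05 by edgeR's quasi-likelihood test), a 2.05-fold rise. On MLE it averaged 11.4 ± 2.53 and 24.8 ± 7.75 CPM (1.12, SE 0.22, adjusted p = 0.000181), a 2.18-fold rise. On SLE it was 17.3 ± 6.87 and 24.5 ± 7.62 CPM (0.51, SE 0.19, adjusted p = 0.126), which did not pass. Without the near-identical pair the value on ENT was 1.18 (SE 0.19, adjusted p = 3.41e-06). That LGALS1 passed on ENT and MLE and not on SLE does not show that the diets differ, and the test of the difference itself did not pass either. The response on SLE minus that on ENT was -0.53 (SE 0.27, adjusted p = 0.348), MLE minus SLE was 0.62 (SE 0.29, adjusted p = 0.477) and MLE minus ENT was 0.08 (SE 0.29, adjusted p = 0.967), and without the pair SLE minus ENT was -0.68 (adjusted p = 0.135) and MLE minus ENT -0.06 (adjusted p = 0.965). SLE-sham against ENT-sham gave 0.48 (SE 0.19, adjusted p = 0.0503), just outside the threshold, and 0.62 (SE 0.18, adjusted p = 0.00841) without the pair, and with 1 pig left out at a time its adjusted p ranged from 0.00782 to 0.152. After BDL, LGALS1 was level on the 3 diets, with group means of 24.5 to 25.4 CPM.

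**Figure D2:**
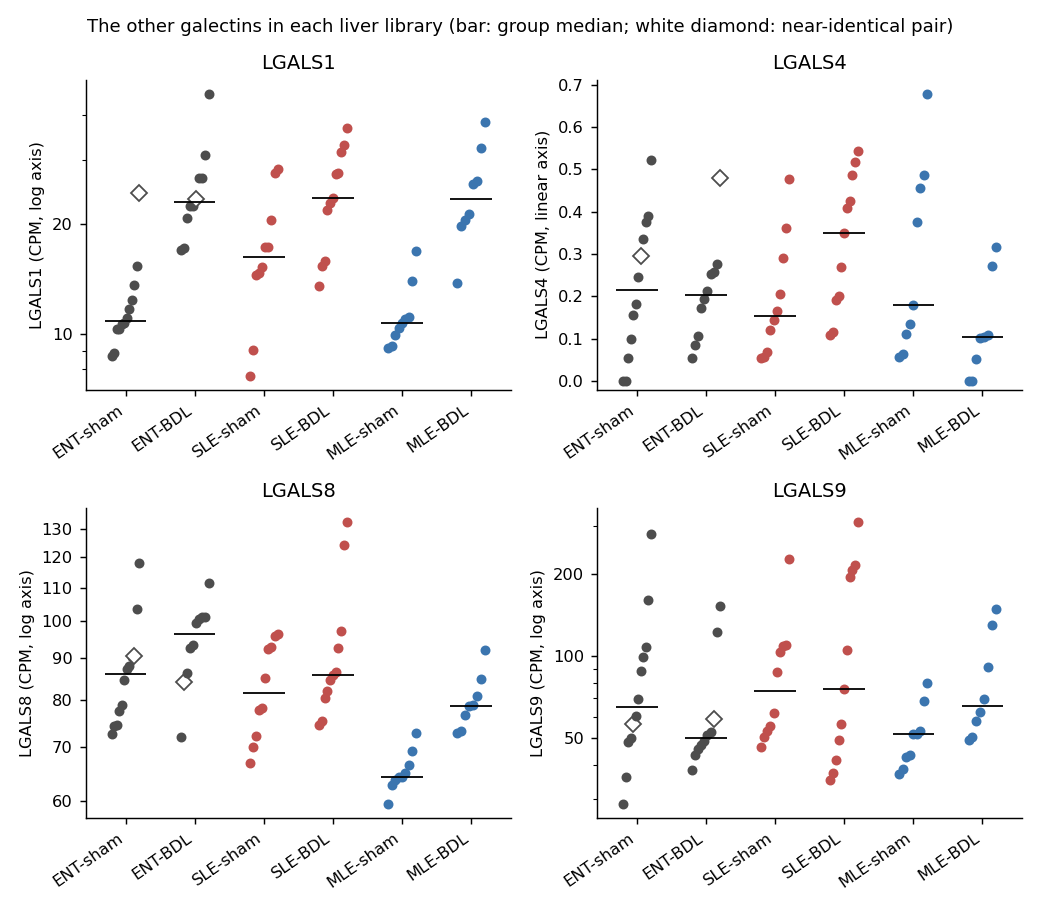
LGALS1, LGALS4, LGALS8 and LGALS9 in CPM for each of the 60 liver libraries by diet and surgery, on log axes except for LGALS4, with group medians as bars and the near-identical pair as white diamonds. LGALS1 is lowest in ENT-sham and MLE-sham (medians 10.9 and 10.7 CPM), LGALS8 is lowest in MLE-sham (median 64.3 CPM), and LGALS9 spreads over 28.7 to 310 CPM without a group standing apart.

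LGALS8 encodes galectin-8, whose 2 sugar-binding domains lie in tandem and which recognises damaged vesicles in the cytosol. It lies on chromosome 14 (54867014-54892188, minus strand) and varied less between pigs than the other members, with coefficients of variation of 5.82% in MLE-sham to 20.7% in SLE-BDL. On ENT, LGALS8 ranged from 72.6 to 118 CPM in sham pigs (median 86.1) and from 72.0 to 111 CPM in BDL pigs (median 96.5). On SLE, it ranged from 67.0 to 96.5 CPM in sham pigs (median 81.6) and from 74.5 to 133 CPM in BDL pigs (median 85.8). On MLE, it ranged from 59.6 to 72.8 CPM in sham pigs (median 64.3) and from 72.8 to 92.2 CPM in BDL pigs (median 78.7). Sham and BDL pigs overlapped on ENT and SLE, whereas on MLE 7 of 8 BDL pigs were above every sham pig.

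On MLE, LGALS8 rose after BDL and averaged 65.3 ± 3.80 CPM in sham and 79.8 ± 6.40 CPM in BDL pigs (log2 fold change 0.29, SE 0.10, adjusted p = 0.0311), which is a 1.22-fold change and under the 2-fold cut that the study used. The call was lost, with an adjusted p of up to 0.0800, when any 1 of 9 pigs was left out (MLE-sham replicates 1 to 6 and MLE-BDL replicates 3, 4 and 6). On ENT the log2 fold change was 0.12 (SE 0.08, adjusted p = 0.348), or 0.14 (adjusted p = 0.292) without the pair, and on SLE it was 0.16 (SE 0.09, adjusted p = 0.322). The level in MLE-sham was low compared with both other sham groups. MLE-sham was below ENT-sham (-0.41, SE 0.09, adjusted p = 0.000343), with 8 of 9 MLE-sham pigs below every ENT-sham pig, and the difference was the same without the pair (-0.41, adjusted p = 0.000528). MLE-sham was also below SLE-sham (-0.34, SE 0.09, adjusted p = 0.0435), a call lost with an identifier block (-0.30, adjusted p = 0.167) and when any 1 of 15 pigs was left out (SLE-sham replicates 1, 2, 4, 5, 6, 8 and 10, and MLE-sham replicates 1 to 7 and 9). MLE-BDL against ENT-BDL gave -0.24 (SE 0.09, adjusted p = 0.0645), which did not pass, whereas the fit with a replicate block gave an adjusted p of 0.0467 and that without the pair -0.26 (adjusted p = 0.0517).

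LGALS9 encodes galectin-9, also a tandem-repeat galectin and a ligand of the T cell receptor TIM-3. It lies on chromosome 12 (44155079-44173634, plus strand). On ENT, LGALS9 ranged from 28.7 to 279 CPM in sham pigs (median 65.2) and from 38.3 to 153 CPM in BDL pigs (median 50.1). On SLE, it ranged from 46.5 to 227 CPM in sham pigs (median 74.6) and from 35.2 to 310 CPM in BDL pigs (median 76.0). On MLE, it ranged from 36.9 to 79.7 CPM in sham pigs (median 51.8) and from 49.1 to 149 CPM in BDL pigs (median 65.9). All 6 groups overlapped, and single pigs of a group differed by more than the groups did.

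None of the BDL comparisons of LGALS9 passed in edgeR. The log2 fold change was -0.45 on ENT (SE 0.36, adjusted p = 0.424), 0.42 on SLE (SE 0.36, adjusted p = 0.583) and 0.67 on MLE (SE 0.40, adjusted p = 0.279), and leaving out the near-identical pair gave -0.48 on ENT (adjusted p = 0.397). Unadjusted, each of these p-values was above 0.05, and DESeq2 called none of them. Where both surgeries of a diet occurred under 1 identifier number, LGALS9 was higher after BDL under 2 of 6 numbers on ENT (-0.78 to 0.44 in mean log2 CPM, or -0.78 to 0.59 without the pair), 1 of 4 on SLE (-1.34 to 0.92) and 4 of 4 on MLE (0.31 to 0.81). With an identifier block the value of LGALS9 was -0.11 on ENT (adjusted p = 0.819), -0.17 on SLE (adjusted p = 0.833), opposite in sign to that without the block, and 0.74 on MLE (adjusted p = 0.0907). Between diets, LGALS9 in SLE-BDL against ENT-BDL gave 0.87 (SE 0.36, adjusted p = 0.0826), which did not pass, although it did without ENT-BDL replicate 3 or without SLE-BDL replicate 11. MLE-sham differed from ENT-sham by -0.80 (SE 0.37, adjusted p = 0.118) and from SLE-sham by -0.80 (SE 0.38, adjusted p = 0.411), and neither passed. Without the pair, SLE-BDL against ENT-BDL was 0.85 (adjusted p = 0.112) and MLE-sham against ENT-sham -0.86 (adjusted p = 0.100). Identifier numbers accounted for 41.8% of the variance of LGALS9 in log2 CPM and the groups for 11.7%, in separate fits. LGALS1 (11.4% and 54.9%) and LGALS8 (21.9% and 44.9%) showed the reverse. The pigs of 1 number had a median of 108 CPM (n = 13) and those of another of 107 CPM (n = 8), against medians of 49.2 to 79.7 CPM under the other numbers. Numbers are spread unevenly over the groups, and what they stand for was not tested.

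LGALS4, which encodes galectin-4 of the gut epithelium, was barely detected. It lies on chromosome 6 (47616984-47625435, minus strand) and had 0 to 10 counts per library, 236 in all, with 27 of 60 libraries above a floor of 3 counts. The level was 0 to 0.677 CPM, and all 6 groups overlapped. It did not pass the filter on low counts. With no filter its log2 fold change after BDL was -0.07 on ENT (SE 0.48, adjusted p = 0.994), 0.75 on SLE (SE 0.48, adjusted p = 0.477) and -1.19 on MLE (SE 0.56, adjusted p = 0.196), so a difference was not detectable at this depth. Of the markers of intestinal epithelium, VIL1 (6.92 to 81.0 CPM over the libraries) and APOA4 (5.06 to 156 CPM) were present in every library, whereas LCT was at 0.112 to 3.46 CPM, CDX2 at 0 to 1.77, SI at 0 to 0.204, FABP2 at 0 to 0.148 and CDX1 at 0 to 0.115. CDX1 was at 0 in every MLE-sham library and FABP2 in every MLE-BDL library. Of the 4 that could be tested, none was called on any diet, with or without the near-identical pair.

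Counted together, 1 of the 3 tested members other than LGALS3 was called higher after BDL on ENT, 0 on SLE and 2 on MLE, and 0 were called lower on any diet. Of all 16210 genes tested, 8.89% were called higher and 8.53% lower on ENT, 2.97% and 1.57% on SLE, and 7.85% and 6.58% on MLE. With 3 genes these shares cannot be set apart from the background. Without the near-identical pair the counts stayed at 1, 0 and 2, where 10.7% of 16141 genes were called higher and 10.2% lower on ENT. The counts of gene lists below are to be read against these shares, those on ENT without the pair against the latter. Among sham groups, the calls with all pigs were those of LGALS8 in MLE-sham, lower than in ENT-sham, where 10.7% of all genes were higher and 10.4% lower, and lower than in SLE-sham, where 0.37% were higher and 0.629% lower. SLE-sham against ENT-sham, with 13.9% of all genes higher and 13.6% lower, called none of the 3 with all pigs and 1, LGALS1, without the near-identical pair (0.62, adjusted p = 0.00841). Among BDL groups none of the 3 was called either, against 10.4% higher and 9.17% lower of all genes for SLE against ENT, 8.53% and 8.27% for MLE against ENT, and 0.216% and 0.691% for MLE against SLE. For the interaction of diet and surgery no member was called, where 2.33% of all genes were called for SLE against ENT, 0.0617% for MLE against ENT and 0.265% for MLE against SLE.

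**Figure D3:**
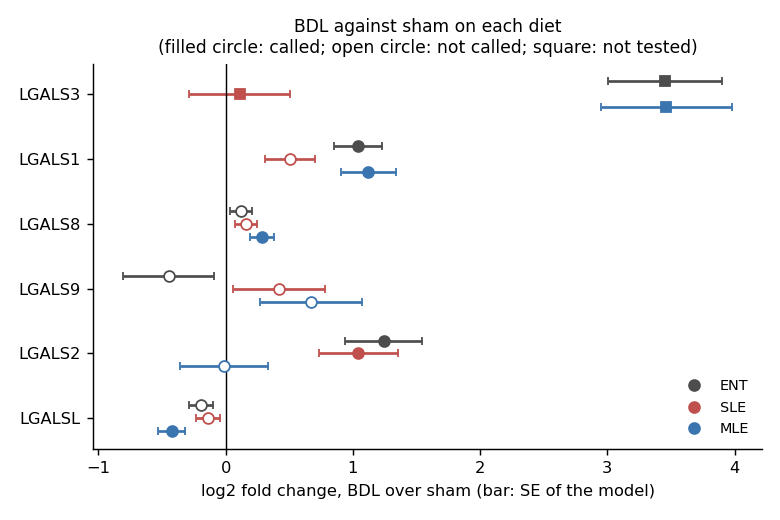
Log2 fold change of BDL over sham with the SE of the model on ENT, SLE and MLE, for the 4 members with enough counts and for LGALS2 and LGALSL. LGALS3, drawn as squares without a test, lies at 3.46 on ENT and MLE and at 0.11 on SLE, and LGALS1 at 1.04, 1.12 and 0.51 in the order ENT, MLE and SLE.

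Per length, the members had a different order from that of their counts. On the scale of mean CPM per kilobase of gene model, MLE-sham livers held 23.5 of LGALS9, 21.9 of LGALS1, 9.06 of LGALS8, 1.54 of LGALS3 and 0.257 of LGALS4. In SLE-BDL livers the same scale gave 54.8 of LGALS9, 47.2 of LGALS1, 24.1 of LGALS3, 12.8 of LGALS8 and 0.299 of LGALS4. LGALS3 was thus below LGALS8 per length in all 12 ENT-sham and all 9 MLE-sham pigs, and above it in 6 of 10 SLE-sham pigs, and after BDL in 6 of 10 pigs on ENT, 8 of 11 on SLE and 6 of 8 on MLE. LGALS3 led all members in 2 of the 10 SLE-sham pigs and in no pig of another group.

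The table held 6 other genes of the family, and LGALS2 and LGALSL passed the filter. LGALS2, a prototype galectin whose gene lies near LGALS1 on chromosome 5 (10237772-10244555), was at 1.07 to 5.42 CPM in sham pigs. LGALS2 rose after BDL on ENT to 6.46 ± 4.79 from 2.72 ± 1.20 CPM (log2 fold change 1.24, SE 0.30, adjusted p = 0.00226, or 1.37, adjusted p = 0.000729 without the near-identical pair) and on SLE to 6.34 ± 4.73 from 3.07 ± 0.756 CPM (1.04, SE 0.31, adjusted p = 0.0380). On MLE it was 3.26 ± 1.43 and 3.25 ± 0.797 CPM (-0.01, SE 0.35, adjusted p = 0.989). The test of the difference in LGALS2 between diets passed for no pair of diets. MLE minus ENT was -1.25 (SE 0.46, adjusted p = 0.373, or -1.39, adjusted p = 0.218 without the pair), MLE minus SLE was -1.05 (SE 0.46, adjusted p = 0.438) and SLE minus ENT was -0.20 (SE 0.43, adjusted p = 0.894). The call on SLE was lost with an identifier block (0.37, adjusted p = 0.575) and without any 1 of 11 pigs (SLE-sham replicates 1, 2, 3, 5, 6, 7 and 10, and SLE-BDL replicates 2 to 5). LGALS2 was also lower in MLE-BDL than in ENT-BDL (-0.98, SE 0.34, adjusted p = 0.0351, or -1.09, adjusted p = 0.0185 without the pair), a call lost with an identifier block (-0.17, adjusted p = 0.813) and without any 1 of 7 pigs (ENT-BDL replicates 3 and 4, and MLE-BDL replicates 3, 4, 5, 7 and 8).

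LGALSL, which encodes a galectin-related protein thought not to bind lactose, was higher on both parenteral diets than on ENT. LGALSL averaged 17.6 ± 2.60 CPM on ENT, 26.3 ± 3.20 on SLE and 31.0 ± 6.41 on MLE in sham pigs, and 15.4 ± 2.29, 23.9 ± 3.54 and 23.1 ± 3.15 in BDL pigs. LGALSL was higher than on ENT by a log2 fold change of 0.58 in SLE-sham (adjusted p = 3.08e-06), 0.81 in MLE-sham (adjusted p = 4.88e-09), 0.63 in SLE-BDL (adjusted p = 2.63e-06) and 0.58 in MLE-BDL (adjusted p = 5.11e-05), each under 2-fold, and without the near-identical pair these were 0.58, 0.81, 0.66 and 0.61, all still called. After BDL LGALSL fell by 0.42 on the log2 scale on MLE (SE 0.11, adjusted p = 0.00394), and on ENT and SLE it did not pass, nor on ENT without the pair (-0.23, adjusted p = 0.103). LGALS7 had at most 21 counts in a library, GRIFIN at most 5, and LGALS12 and LGALS13 never more than 3.

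The genes most like LGALS3 were found by Pearson's r of log2 CPM over the 60 libraries, which share the 6 groups, so that r mostly follows the group pattern that chose LGALS3, and no p is given. The highest were SPP1 (r = 0.94), GPNMB (0.93), LPL (0.91), TREH (0.85), MAPK8IP1 (0.84), TNFRSF12A (0.84), TREM2 (0.84) and PARVB (0.84), and r within groups was 0.76, 0.73, 0.71, 0.60, 0.43, 0.41, 0.41 and 0.40 in the same order. LGALS1 had an r of 0.76 with LGALS3 and of 0.57 within groups, while LGALS8 had 0.24 and -0.12 and LGALS9 0.02 and -0.30. SPP1 encodes the secreted phosphoprotein osteopontin, GPNMB a transmembrane glycoprotein of lysosome-rich macrophages, LPL lipoprotein lipase and TREM2 a lipid receptor of myeloid cells. SPP1 averaged 19.6 CPM on ENT, 112 on SLE and 29.8 on MLE in sham pigs, and 88.6, 116 and 86.7 in BDL pigs. GPNMB averaged 55.9 CPM on ENT, 257 on SLE and 72.2 on MLE in sham pigs, and 202, 240 and 190 in BDL pigs. LPL was at or below 0.761 CPM in every ENT-sham pig and at or below 0.538 in every MLE-sham pig, against means of 4.47 in SLE-sham and 4.67 in SLE-BDL.

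**Figure D4:**
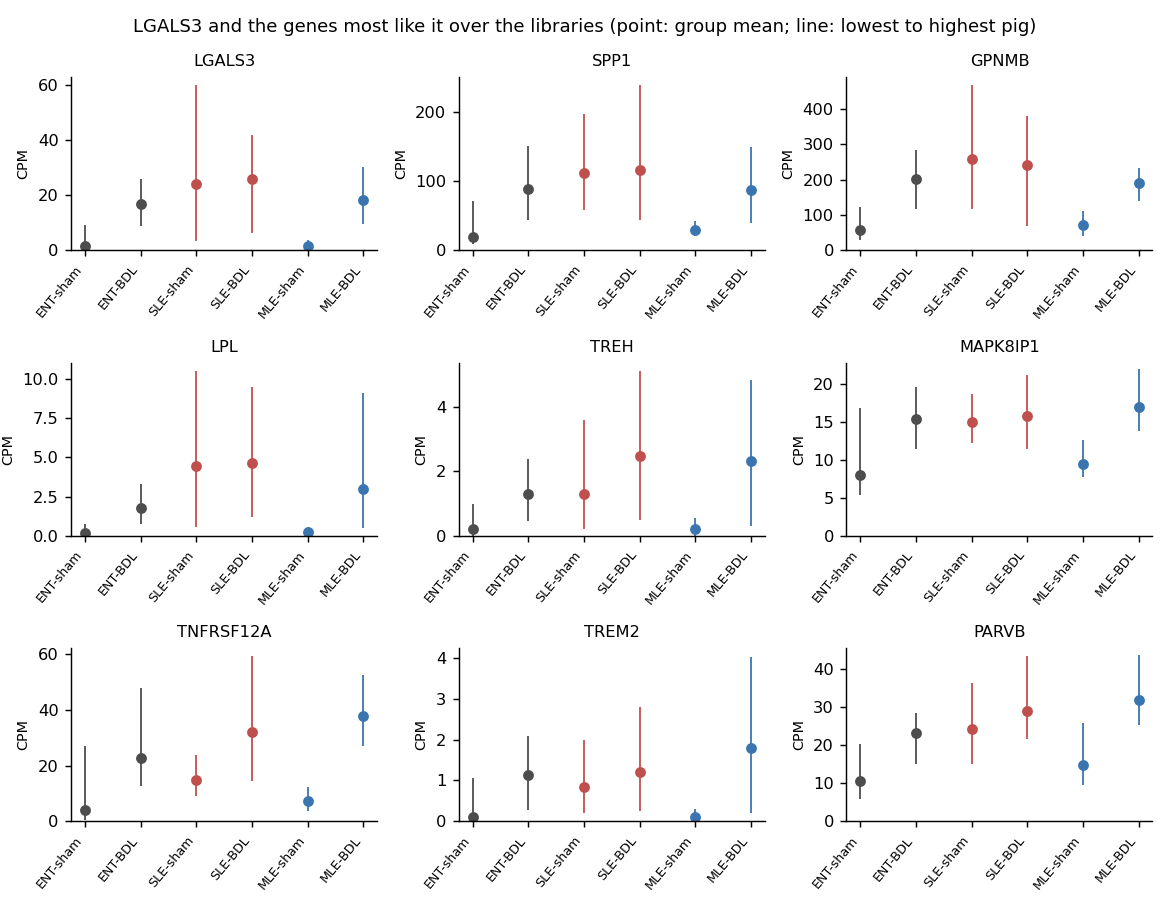
Group means (points) and lowest to highest pig (lines), in CPM on linear axes, of LGALS3 and the 8 genes most like it over the 60 libraries. In each panel ENT-sham and MLE-sham are the lowest means, for SPP1 at 19.6 and 29.8 CPM against 112 CPM in SLE-sham.

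The markers of lipid-associated macrophages were TREM2, GPNMB, SPP1, CD9, FABP5 and LPL. Of these, 4 are among the genes named above for their likeness to LGALS3 in the same libraries, so their calls are no independent evidence of its pattern, and SPP1 is also made by bile duct epithelium. After BDL 6 of 6 were called higher on ENT (median log2 fold change 2.01), 0 of 6 on SLE (0.25) and 6 of 6 on MLE (1.54), where the median of all tested genes was 0.01, 0.01 and 0.00, and 6 of 6 were called on ENT without the near-identical pair (median 2.33). SPP1 rose by 2.17 on ENT (adjusted p = 1.83e-07) and by 1.54 on MLE (adjusted p = 0.000427), and its value on SLE was 0.05 (adjusted p = 0.952). Without the pair SPP1 rose by 2.59 on ENT and GPNMB by 2.08. GPNMB rose by 1.85 on ENT (adjusted p = 2.05e-07) and by 1.40 on MLE (adjusted p = 0.000237), and its value on SLE was -0.10 (adjusted p = 0.884). These counts do not show that the diets differ. In the test of the difference, SLE minus ENT was called for GPNMB (-1.95, adjusted p = 0.000682), SPP1 (-2.12, adjusted p = 0.00131), LPL (-2.97, adjusted p = 0.0177) and TREM2 (-2.53, adjusted p = 0.0392), all picked for likeness, and not for CD9 (-0.16, adjusted p = 0.810) or FABP5 (-0.57, adjusted p = 0.619). MLE minus SLE was called for LPL (3.73, adjusted p = 0.0210) and TREM2 (3.59, adjusted p = 0.0242), and not for GPNMB (1.495, adjusted p = 0.0518), SPP1 (1.49, adjusted p = 0.110), FABP5 (0.92, adjusted p = 0.545) or CD9 (0.08, adjusted p = 0.959). The summed level of the 6 markers was 52.4 to 228 CPM on ENT, 202 to 687 on SLE and 84.3 to 168 on MLE in sham pigs, and 209 to 463, 188 to 645 and 243 to 423 in BDL pigs, and none was at 0 throughout a group. The part of these cells in the level of LGALS3 was not tested.

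Of 16 general macrophage markers, 2 were called higher and 3 lower on ENT, 1 and 0 on SLE, and 2 and 4 on MLE. Medians were -0.34, -0.18 and -0.27, and without the near-identical pair 2 were called higher and 5 lower on ENT. With all pigs the shares higher were 12.5%, 6.25% and 12.5%, against 8.89%, 2.97% and 7.85% of all genes. The shares lower were 18.8%, 0% and 25%, against 8.53%, 1.57% and 6.58%. MARCO, a scavenger receptor of Kupffer cells, rose on all diets (log2 fold change 1.48 on ENT, 1.01 on SLE and 1.13 on MLE, adjusted p = 1.06e-05, 0.0102 and 0.00278). MSR1, a scavenger receptor for modified lipoproteins, rose by 0.41 on ENT (adjusted p = 0.0429) and 0.62 on MLE (adjusted p = 0.00633), and its value on SLE was 0.0028 (adjusted p = 0.995). MSR1 averaged 16.4 CPM on ENT, 28.4 on SLE and 16.4 on MLE in sham pigs, and 21.7, 28.5 and 25.2 in BDL pigs, so its group means were ordered much as those of LGALS3, with SLE-sham above ENT-sham (0.79, adjusted p = 2.14e-05). The difference of its response between diets did not pass (SLE minus ENT -0.40, adjusted p = 0.356, and MLE minus SLE 0.62, adjusted p = 0.292). CD5L, a Kupffer cell product, fell by 0.66 on ENT (adjusted p = 0.00410) and by 0.64 on MLE (adjusted p = 0.0156). Macrophage markers summed to 1696 to 3485 CPM on ENT, 1821 to 2941 on SLE and 2123 to 3342 on MLE in sham pigs, and 1734 to 2721, 1867 to 2369 and 1596 to 2347 in BDL pigs, with none of the markers at 0. The median of this sum was highest in ENT-sham (2945 CPM), against 2448 in SLE-sham and 2210 in ENT-BDL. The list as a whole thus did not share the order of MSR1.

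Cholangiocyte markers were called higher after BDL for 5 of 11 on ENT (45.5%, against 8.89% of all genes), 2 on SLE (18.2% against 2.97%) and 6 on MLE (54.5% against 7.85%). The pair called on SLE was KRT7 and ANXA4, and the other 9 did not pass there. On MLE 1 was called lower (PROM1, by 1.61). Without the near-identical pair of libraries 6 were called on ENT, SOX9, a transcription factor of bile duct cells, joining with 0.91 (adjusted p = 0.00371). KRT7, a keratin of bile duct cells, rose by 1.86 on ENT (adjusted p = 6.78e-05), by 1.46 on SLE (adjusted p = 0.00942) and by 1.83 on MLE (adjusted p = 0.000728). The ENT-sham library of the near-identical pair stood out in KRT7, so that ENT-sham ranged from 1.16 to 27.7 CPM with a median of 2.28, and without the pair KRT7 rose by 2.66 on ENT (adjusted p = 9.98e-13). Summed cholangiocyte markers were 239 to 647 CPM on ENT, 324 to 425 on SLE and 338 to 435 on MLE in sham pigs, and 354 to 643, 379 to 543 and 420 to 574 in BDL pigs, with none at 0. Their part in the level of LGALS3 was not tested.

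Among the other cell types, 2, 2 and 4 of 12 stellate cell and fibroblast markers were called higher on ENT, SLE and MLE, and 1, 0 and 1 lower. The shares called higher were 16.7%, 16.7% and 33.3%, against 8.89%, 2.97% and 7.85% of all genes. COL3A1 rose by 0.79 on ENT (adjusted p = 0.00323) and by 1.00 on MLE (adjusted p = 0.00137). COL1A1 rose by 1.56 on MLE (adjusted p = 0.00265). Without the near-identical pair 3 of these markers were called higher on ENT, with COL1A1 joining at 0.95 (adjusted p = 0.0263). The summed level of these markers was 1289 to 4220 CPM on ENT, 1361 to 3976 on SLE and 1302 to 3266 on MLE in sham pigs, and 1473 to 4232, 1533 to 8248 and 2309 to 6062 in BDL pigs, with none at 0, and their part in the level of LGALS1 was not tested. Of 10 hepatocyte markers, 1, 0 and 0 were called higher and 4, 0 and 6 lower on ENT, SLE and MLE. The shares called lower were 40%, 0% and 60%, against 8.53%, 1.57% and 6.58% of all genes. TF was the marker called higher, by 0.84 on ENT (adjusted p = 3.78e-06). ALB fell by 0.83 on ENT (adjusted p = 7.46e-05) and by 0.77 on MLE (adjusted p = 0.00113). Of 10 endothelial markers, 2 were called lower on ENT, 0 on SLE and 2 on MLE (20%, 0% and 20%, against 8.53%, 1.57% and 6.58% of all genes). Of 10 lymphocyte markers, 1 was called lower on SLE and 1 on MLE (10% each, against 1.57% and 6.58%). On each diet 1 of 6 neutrophil markers was called higher (16.7%, against 8.89%, 2.97% and 7.85%). Of 8 erythroid markers, 1 was called lower on MLE (12.5% against 6.58%). A single call in a list this short cannot be set apart from the shares of all genes.

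Genes of ligands and counter-receptors of galectins, the sugar-bearing proteins that galectins hold on to, numbered 34 after the filter. Of these, 5 were called higher and 4 lower on ENT (14.7% and 11.8%, against 8.89% and 8.53% of all genes), with the same counts without the near-identical pair. On SLE 2 were higher and 0 lower (5.88% and 0%, against 2.97% and 1.57%), and on MLE 4 and 0 (11.8% and 0%, against 7.85% and 6.58%), with medians of -0.01, 0.05 and 0.07 on ENT, SLE and MLE. TNFRSF9, which encodes the costimulatory receptor 4-1BB bound by galectin-9, rose by 2.50 on ENT (adjusted p = 1.11e-05) and by 1.40 on MLE (adjusted p = 0.0286), and its value on SLE was 0.03 (adjusted p = 0.981). Without the pair TNFRSF9 rose by 3.31 on ENT (adjusted p = 5.79e-10). In the test of the difference with all pigs, SLE minus ENT was called for TNFRSF9 (-2.47, adjusted p = 0.00806). MLE minus SLE (1.37, adjusted p = 0.435) and MLE minus ENT (-1.10, adjusted p = 0.610) did not pass. ITGA3, an integrin chain for laminin, rose by 1.05 on ENT (adjusted p = 0.00442) and 1.34 on SLE (adjusted p = 0.00401), and its value on MLE was 0.56 (adjusted p = 0.241). LAMC1, a laminin chain, rose on all diets, by 0.56 on ENT (adjusted p = 0.000537), 0.47 on SLE (adjusted p = 0.0171) and 0.75 on MLE (adjusted p = 8.06e-05).

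Genes for the synthesis of glycans which galectins bind, from chain-building and sialylating enzymes to sugar transporters, were called in both directions. Of 34 tested, 5 were higher and 3 lower on ENT (14.7% and 8.82%, against 8.89% and 8.53% of all genes), or 6 and 4 without the near-identical pair. On SLE 0 were called either way, against 2.97% and 1.57% of all genes, and on MLE 1 was higher and 5 lower (2.94% and 14.7%, against 7.85% and 6.58%), with medians of -0.07, 0.01 and -0.06 on ENT, SLE and MLE. B3GNT7, a chain-extending transferase, rose by 1.62 on ENT (adjusted p = 0.00859), with 1.12 on SLE (adjusted p = 0.167) and 1.13 on MLE (adjusted p = 0.135). B4GALT2, a galactosyltransferase, rose by 0.42 on ENT (adjusted p = 0.000413), and B3GNT3 rose by 0.55 on MLE (adjusted p = 0.00418).

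In the response to damaged endosomes and lysosomes, in which cytosolic galectins mark the broken vesicle, 1 of 25 genes was called higher on each diet (4%, against 8.89%, 2.97% and 7.85% of all genes on ENT, SLE and MLE). On ENT 4 were called lower (16% against 8.53%), and 0 on SLE and MLE, where 1.57% and 6.58% of all genes were. The counts on ENT were again 1 and 4 without the near-identical pair. The gene called higher was CALCOCO2 on all diets, which encodes NDP52, the autophagy receptor that binds galectin-8. CALCOCO2 rose by 0.39 on ENT (adjusted p = 6.59e-05), 0.28 on SLE (adjusted p = 0.0161) and 0.40 on MLE (adjusted p = 0.000330), each under 2-fold. TFEB, the transcription factor of lysosomal genes, fell by 0.41 on ENT (adjusted p = 0.00539), and ULK1, an autophagy kinase, fell by 0.49 on ENT (adjusted p = 0.0201).

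LGALS3BP, the secreted glycoprotein that binds galectin-3, is in the ligand list and followed LGALS9 rather than LGALS3. It lies on chromosome 12 (3212435-3222651). LGALS3BP ranged from 105 to 1766 CPM over the libraries and was not called after BDL on any diet (-0.73, SE 0.41, adjusted p = 0.220 on ENT, or -0.76, adjusted p = 0.210 without the near-identical pair, 0.11, SE 0.41, adjusted p = 0.924 on SLE, and 0.59, SE 0.45, adjusted p = 0.426 on MLE). Its r with LGALS3 over the 60 libraries was -0.06. The pair of LGALS9 and LGALS3BP was picked after their values were seen, so its correlations are a description without a p. Pearson's r of their log2 CPM within a group was 0.90, 0.96 and 0.76 in sham pigs on ENT, SLE and MLE, and 0.81, 0.92 and 0.96 in BDL pigs. Without the 2 pigs farthest from the median of LGALS9 it was 0.94, 0.90 and 0.56, and 0.40, 0.89 and 0.94, so in ENT-BDL it rested mostly on those pigs, and in MLE-sham in part. Identifier numbers accounted for 35.5% of the variance of LGALS3BP and groups for 8.60%, and the part of these numbers in the correlation was not tested.

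**Figure D5:**
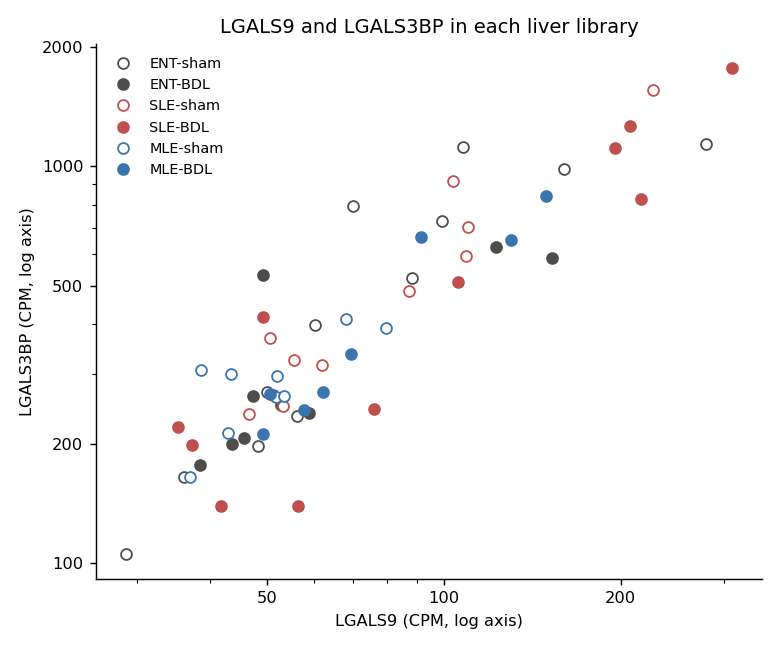
LGALS9 against LGALS3BP in CPM on log axes, 1 point per liver library, with open points for sham and filled points for BDL and colours for the diets. Within groups r is 0.76 in MLE-sham to 0.96 in SLE-sham and MLE-BDL, and without the 2 pigs farthest from the median of LGALS9 it is 0.40 in ENT-BDL and 0.56 in MLE-sham.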

How the data were processed

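RNA-Seq libraries of liver were prepared from poly(A) RNA, labelled as 1 per pig except for a pair in SLE-sham that shares an identifier. Per the labels and the study's methods, the authors cleaned reads with fastp, aligned them to Sscrofa11.1 with HISAT2 (2.0.5), used StringTie (1.3.3), and counted with featureCounts (1.5.0-p3); strand use in counting is not given in the sources used here. The authors deposited raw counts per gene without normalization, and the study used DESeq2. Of 30359 features, 24 without an identifier (0.00842% to 0.0407% of counts) were left out.

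In R 4.3.3, edgeR 4.0.16 kept 16210 genes by filterByExpr, scaled by TMM and fitted all 60 libraries in 1 robust quasi-likelihood model with 6 groups. A gene was called at an adjusted p (Benjamini-Hochberg over tested genes) under 0.05. SE is the log2 fold change over the square root of F. Log2 CPM used a prior count of 2, and levels per length the gene lengths of the deposited table. DESeq2 1.42.0 was an alternative, and scripts were tested on simulated data. Other alternatives were RLE scaling, no filter, the compared groups alone, replicate and identifier blocks, a 2-fold cut, and libraries left out.

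Members and lists were chosen with earlier results of these data known. Named were the members, other galectins and the 8 genes most like LGALS3. Of each list, up to 3 called genes with the largest change (mean log2 CPM 0 or more) could be named, and not all were. Some genes, such as ANXA4, CD9, FABP5 and the intestinal markers, were named outside this rule. In 28 same-numbered pairs of libraries, residuals correlated at -0.18 to 0.38 (median 0.06), so the numbers were not used as a pairing. Each group's pigs are separate animals by their labels, except as stated.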

Additional observations from a re-analysis of the deposited data

Results flagged for a closer look

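In 32 sets of a galectin or LGALS3BP in a group of 4 to 10 pigs, the gap of the highest or lowest pig to its neighbour was set against the range of the group. The cut-off is set so that chance picks about 1 in 20 independent groups of normally distributed values. That rate was not tested here, where values are in CPM and the sets share pigs. ENT-sham (n = 12) and SLE-BDL (n = 11) were too large for this cut-off and were not examined. ENT-sham replicate 2, at 9.31 CPM of LGALS3, is therefore not among the pigs below. Of the 32, 6 had a pig that stood apart, each time the highest. LGALS3 was 3.53 CPM in MLE-sham replicate 2, while the next pig of the group was at 1.97. LGALS1 was 45.7 CPM and LGALS2 18.3 CPM in ENT-BDL replicate 4. LGALS4 was 0.479 CPM in ENT-BDL replicate 1, of the near-identical pair, at 10 counts. LGALS9 was 227 CPM and LGALS3BP 1559 CPM in SLE-sham replicate 2.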

How the results depend on the processing

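No value turned its direction past the threshold under any alternative. LGALS3 on ENT moved from 3.46 to 4.59 with both near-identical libraries left out and to 4.63 with an identifier block as well. Leaving out each pig in turn gave 3.36 to 4.51, the upper value without ENT-sham replicate 2. LGALS8 on MLE (0.29) lost its call with the 2-fold cut and with no filter (0.27, adjusted p = 0.0638), where 1 galectin in place of 2 was called, and gave 0.25 to 0.31 and 1 to 2 galectins with each pig left out in turn. An identifier block changed list counts to 5 lower glycan genes and 2 higher endolysosomal genes on ENT, 2 higher glycan genes on SLE, and 3 higher glycan and 3 higher endolysosomal genes on MLE. DESeq2 called 1 glycan gene higher on SLE. Leaving out the near-identical pair gave 1 glycan gene higher on SLE, and 2 glycan genes higher and 1 endolysosomal gene lower on MLE. The causes were not tested. The replicate numbers did not pair the pigs. A replicate block gave 3.72, 0.21 and 3.45 for LGALS3 on ENT, SLE and MLE, 0.95 (adjusted p = 0.000681) for LGALS1 on ENT, and changed no call of LGALS1, LGALS8 or LGALS9 after BDL. The value of LGALS9 on SLE, never called, was -0.17 with an identifier block. Depth limits LGALS4 and the family genes at a few counts, and counts of 3 or fewer were read as the floor.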
